A study of Sus scrofa with 64 samples.

Results

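Messenger RNA levels of genes of the intestinal brush border were described in 16 tissues of pigs. The genes were ANPEP, DPP4, VIL1, LGALS4, MEP1A and MGAM, taken by name. In the platform annotation 4 of these 6 genes had a probe, 1 probe each, among the 23935 probes of the porcine array. MEP1A, a subunit of the metalloprotease meprin, and MGAM, a starch-digesting glucosidase, were not analysed here. The 64 arrays held 1 sample per tissue from each of 4 pigs, so that every tissue had 4 arrays. The animals were a Large White male of 38.8 kg and a Large White female of 36.2 kg, both 87 days old, and an Iberian male of 25.4 kg and an Iberian female of 32.8 kg, both 89 days old. Large White is a lean, fast-growing breed and Iberian a fat, slow-growing local breed. The animals were bought from 2 breeding companies, and were housed together and fed the same diets during fattening, after weaning. Their rearing before weaning was not described. A breed or a sex was thus represented by 2 animals and each combination of breed and sex by 1 animal.

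The absorptive cells of the small intestine, the enterocytes, carry on their luminal side a dense layer of microvilli, the brush border. Bundles of actin held together by villin stiffen each microvillus, and enzymes anchored in its membrane release amino acids and sugars from the last fragments of proteins and starch, which transporters beside them then take up. ANPEP (aminopeptidase N) removes single amino acids from the amino end of peptides and DPP4 (dipeptidyl peptidase 4) removes pairs of residues, often ending in proline. VIL1 encodes villin, and LGALS4 encodes galectin-4, a lectin that binds sugars of glycolipids and glycoproteins in the apical membrane. The enzymes are known from other organs too, among them bile canaliculi of the liver and, for DPP4, lymphocytes, whereas villin and galectin-4 are known mainly from epithelia of the digestive tract.

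The level of a gene is given on the log2 scale after RMA, a procedure that corrects background, gives all arrays the same distribution and summarises the oligonucleotides of a probe. Each additional unit on this scale stands for a 2-fold signal. Levels of different probes depend on their own sequences and were not set against each other. Over all arrays the values ran from 1.78 to 14.47 with a median of 5.47, and the medians of single arrays lay between 5.38 and 5.52. Arrays carry no read depth, and the 4 animals limit the precision. The ileum was sampled as epithelium, and its arrays carried the epithelial markers. Of 12 probes of junction and keratin genes 10 were higher in ileum than in the other tissues, beside 23.4% of all probes. The levels of EPCAM, an epithelial adhesion molecule, were between 11.34 and 11.93 in the 4 animals. All 12 hepatocyte probes were higher in liver and all 8 gastric epithelium probes were higher in stomach than in the 13 tissues that exclude the other digestive organs. Of all probes 21.0% were called higher in liver and 19.5% in stomach. The mean correlation of an array with the other 3 of its tissue, over all probes, was lowest for the biceps femoris of the Iberian female (0.900) and for the Large White male's pineal gland (0.932). The stomach of the Iberian female, at 0.959 in place 6 from the lowest of 64, was singled out after its values of VIL1 and LGALS4 were seen and is described with them. Without the biceps femoris array no call of the 4 genes changed in the 7 comparisons of tissues.

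ANPEP was highest in ileum. Its levels there were 12.31 in the Large White male, 11.86 in the Large White female, 12.53 in the Iberian male and 12.10 in the Iberian female. The lowest of these 4 values was 1.32 above the highest value of ANPEP in any of the other 60 arrays. Only 2.21% of all probes had all 4 ileum arrays above every other array. The next tissue was the thyroid gland, with levels of 10.38, 10.54, 10.52 and 10.41 in the same order of animals, a mean of 10.46 ± 0.08 (SD, n = 4). The thyroid values overlapped neither ileum nor the following tissues. Liver (9.06 ± 0.73), adrenal cortex (8.85 ± 0.38), adrenal medulla (8.71 ± 0.13), abdominal fat (8.48 ± 0.14) and back fat (8.23 ± 0.74) formed a run of tissues in which each overlapped the next. The neurohypophysis followed at 7.26 ± 0.32, above all 4 values of blood (6.37 ± 0.32), and the stomach values of 5.54 to 6.49 overlapped those of blood. Muscle, adenohypophysis, pineal gland, olfactory bulb and hypothalamus lay between 4.80 and 5.52 on average and overlapped from each to the next. In the order of the 16 tissues, 3 of the 15 pairs of neighbours did not overlap, namely those after ileum, thyroid gland and neurohypophysis. From ileum to hypothalamus the mean level of ANPEP spanned 7.40 log2 units.

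DPP4, the other peptidase, was highest in liver and not in ileum. Its liver levels were 11.37, 11.60, 11.42 and 11.55 in Large White (male, female) and Iberian (male, female), with an SD of 0.11. All of them were above every other array, as was the case for 2.88% of all probes. In ileum the levels of DPP4 were 10.80, 8.15, 10.90 and 9.50 in the same order. The ileum values were thus spread over 2.74 log2 units, with an SD of 1.29, and that of the Large White female lay below all 4 diaphragm values. The diaphragm had levels of 8.26, 8.90, 8.66 and 9.10, a mean of 8.73 ± 0.36, above all 4 values of biceps femoris, the other muscle sampled (7.14 ± 0.43). Adrenal medulla (7.84 ± 0.57), adrenal cortex (7.37 ± 0.46), blood (7.18 ± 0.25), biceps femoris and stomach (6.93 ± 0.06) overlapped from each to the next. Back fat, thyroid gland and abdominal fat followed with means between 6.01 and 6.14. All 20 arrays of olfactory bulb, hypothalamus, pineal gland and both hypophyses had DPP4 levels between 3.26 and 5.32, below the lowest of the other tissues, 5.38. A pattern in which these 20 arrays were below all others was found for 0.0752% of all probes. The order of DPP4 means had 3 gaps without overlap, after liver, stomach and abdominal fat.

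**Figure D1:**
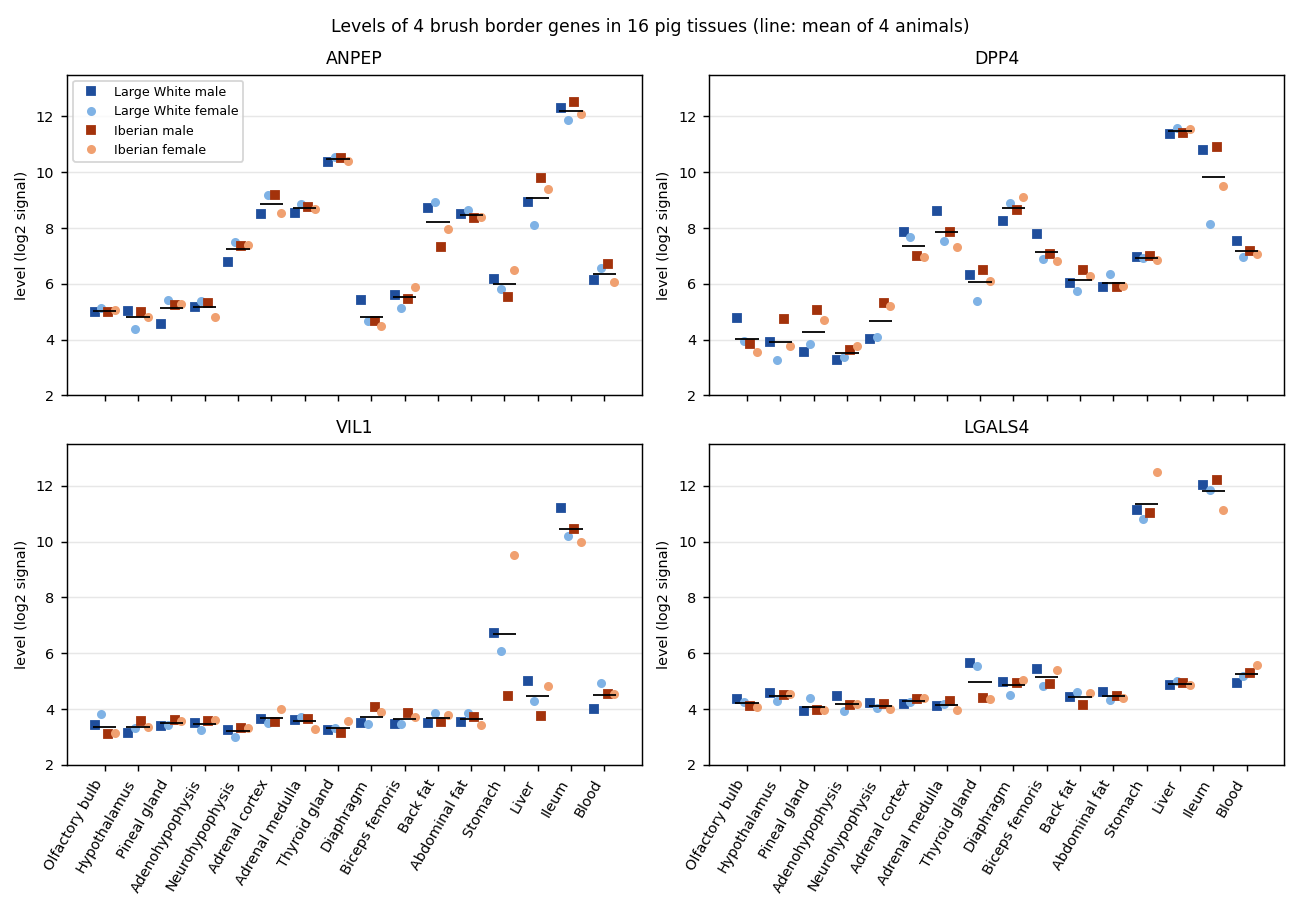
Levels (log2 signal after RMA) of ANPEP, DPP4, VIL1 and LGALS4 on the vertical axes, by tissue on the horizontal axes. Each point is 1 array, squares are males, circles females, blue Large White and orange to brown Iberian, and lines are means of the 4 animals. ANPEP and VIL1 were highest in ileum, DPP4 in liver, and LGALS4 was high in ileum and stomach, and the VIL1 value of 9.51 in the stomach of the Iberian female stood above the other 3 stomachs.

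VIL1, the gene of villin, was high in ileum, with levels of 11.22, 10.20, 10.44 and 9.996 in Large White (male, female) and Iberian (male, female). Stomach was the next tissue, with 6.73, 6.07, 4.48 and 9.51 in the same order, a mean of 6.70 ± 2.10. The Iberian female had the highest VIL1 level of all stomachs and the Iberian male the lowest, and these 2 arrays were 5.03 log2 units apart. Even so, the lowest ileum value was 0.49 above that of the Iberian female's stomach, so that VIL1 too had its 4 ileum arrays above the 60 others. Blood (4.50 ± 0.39) and liver (4.47 ± 0.56) came next, and the means of the remaining 12 tissues lay between 3.22 and 3.73, with single values between 2.99 and 4.07. Only the pair of ileum and stomach did not overlap among the 15 pairs of neighbours. Tissues farther apart in the order did differ without overlap in places, since all stomach values were above all values of those 12 tissues, and all values of blood were above those of the neurohypophysis, 2.99 to 3.34.

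LGALS4 was high in both ileum and stomach. In ileum its levels were 12.05, 11.86, 12.20 and 11.15 and in stomach 11.14, 10.80, 11.04 and 12.48, again in the order Large White male, Large White female, Iberian male and Iberian female. The stomach of the Iberian female had the highest LGALS4 value of all 64 arrays, and her ileum the lowest of the 4 ilea. In the other 3 animals the level was higher in ileum than in stomach. All 8 arrays of both organs were above all 56 others, as for 0.163% of all probes. The next tissue was blood, at 5.25 ± 0.27, and the means of the remaining tissues lay between 4.06 and 5.14. In the thyroid gland the Large White animals had LGALS4 levels of 5.64 and 5.54 and the Iberian animals 4.38 and 4.37. The breeds thus did not overlap there, which is common. Of all probes and tissues, 19.9% had both Large White animals above both Iberian animals and 20.6% had them below.

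Ileum, the only intestinal segment sampled, was compared with the other tissues for these genes, which had been taken by name as genes of the brush border. All 4 genes were higher in ileum than the mean of the other 15 tissues. Of all probes 23.4% were called higher and 29.5% lower in this comparison, and the median difference over all probes was -0.09. LGALS4 was 6.82 ± 0.17 (SE) log2 units higher, a 113-fold difference (adjusted p = 5.3e-37), and VIL1 was 6.61 ± 0.30 higher, a 97.4-fold difference (adjusted p = 1.8e-25). ANPEP was 5.27 ± 0.19 higher, a 38.7-fold difference (adjusted p = 3.4e-29), and DPP4 3.48 ± 0.25, an 11.2-fold difference (adjusted p = 3.5e-17). By the size of the difference LGALS4, VIL1, ANPEP and DPP4 were in places 14, 21, 47 and 201 among the 23935 probes. The lowest ileum value of each gene was above its mean over the other 15 tissues, which was 6.93 for ANPEP, 6.35 for DPP4, 3.86 for VIL1 and 4.99 for LGALS4. In bulk samples, fewer cells of a type and less RNA per cell cannot be told apart, so that these are levels of the tissue and not of its enterocytes.

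Against stomach, 3 of the 4 genes were higher in ileum, beside 17.3% of all probes. ANPEP was 6.19 ± 0.27 log2 units higher (adjusted p = 5.8e-26), VIL1 3.77 ± 0.41 (adjusted p = 5.8e-11; 4.71 without the stomach of the Iberian female) and DPP4 2.90 ± 0.35 (adjusted p = 9.7e-10). LGALS4 differed by 0.45 ± 0.23, with a 95% confidence interval from -0.016 to 0.92, and was not called (adjusted p = 0.13). Without the stomach of the Iberian female the difference of LGALS4 was 0.85 (adjusted p = 8.3e-04), a choice made after the values were seen, and without all arrays of that animal it was 1.04 (adjusted p = 8.9e-05). That array therefore decided whether LGALS4 was called between ileum and stomach.

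Against liver, 3 genes were higher in ileum, beside 24.4% of all probes, and 1 was lower, beside 21.7%. LGALS4 was 6.90 ± 0.23 log2 units higher (adjusted p = 2.1e-31), VIL1 5.99 ± 0.41 (adjusted p = 2.7e-18) and ANPEP 3.14 ± 0.27 (adjusted p = 8.6e-15). DPP4 was 1.65 ± 0.35 lower in ileum than in liver, a 3.13-fold difference (adjusted p = 7.6e-05). The 2 peptidases thus differed in opposite directions between these organs. All 4 ileum values of DPP4 were below all 4 liver values, and all 4 ileum values of ANPEP were above all 4 liver values.

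**Figure D2:**
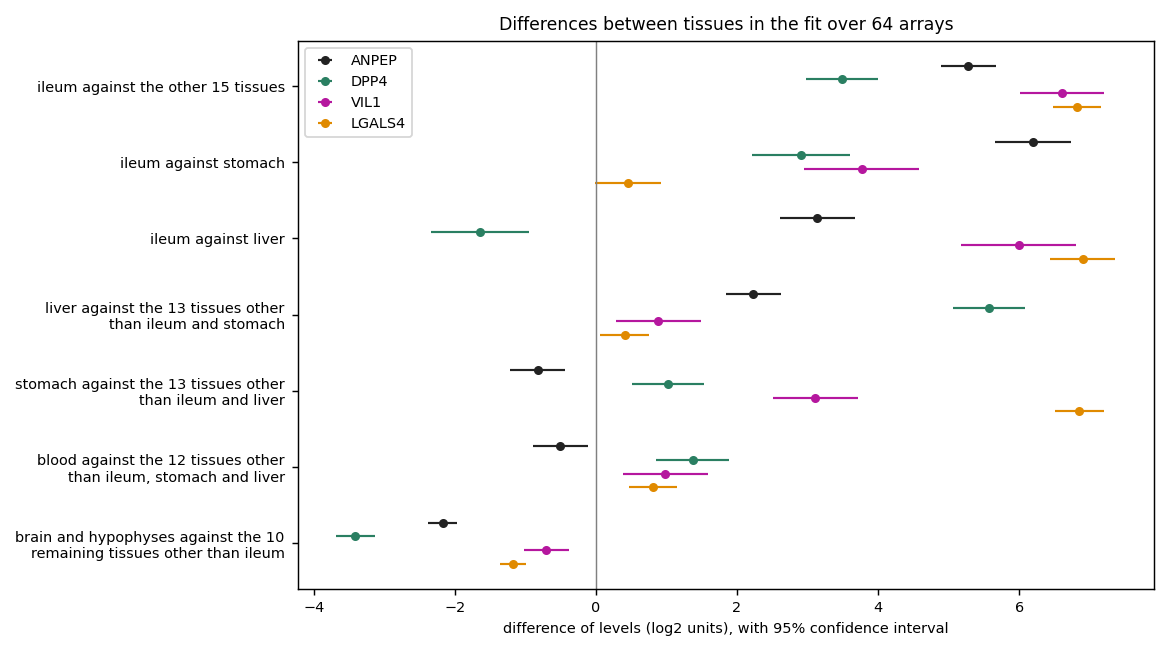
Differences in level (log2 units, horizontal axis) of the 4 genes for 7 comparisons of tissues, as estimates with 95% confidence intervals from the fit over 64 arrays. LGALS4 lay far to the right for both ileum and stomach, whereas DPP4 lay to the left of 0 for ileum against liver, and the LGALS4 interval for ileum against stomach included 0.

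The 4 genes were unlike one another in the other digestive organs. In liver all 4 genes were called higher than in the 13 tissues other than ileum and stomach, beside 21.0% of all probes. The difference was 5.57 ± 0.25 log2 units for DPP4 (adjusted p = 1.2e-25), 2.23 ± 0.20 for ANPEP (adjusted p = 2.0e-14), 0.88 ± 0.30 for VIL1 (adjusted p = 0.012) and 0.41 ± 0.17 for LGALS4 (adjusted p = 0.043). The calls of VIL1 and LGALS4 did not hold without the Large White male, at adjusted p of 0.17 and 0.070, and that of LGALS4 also was lost without the Large White female (0.14) or the Iberian male (0.16). The liver mean of LGALS4, 4.92, was below those of blood (5.25), biceps femoris (5.14) and thyroid gland (4.98). That of VIL1 was 4.47, beside 4.50 in blood. In stomach, LGALS4 was 6.85 ± 0.17 higher than in the 13 tissues other than ileum and liver (adjusted p = 7.4e-37), VIL1 3.11 ± 0.30 higher (adjusted p = 1.1e-12) and DPP4 1.02 ± 0.25 higher (adjusted p = 8.6e-04), beside 19.5% of all probes. ANPEP was 0.83 ± 0.20 lower in stomach than in those tissues (adjusted p = 4.3e-04), beside 22.5% of all probes. Without the stomach of the Iberian female the VIL1 difference of stomach was 2.17 (adjusted p = 7.3e-12).

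Blood differed from the 12 tissues other than ileum, stomach and liver in the level of all 4 genes, but 44.3% of all probes were called higher and 35.5% lower in blood, so that a call there was the rule. DPP4, which is known on activated T cells as CD26, was 1.37 ± 0.26 higher (adjusted p = 4.0e-06), VIL1 0.98 ± 0.30 (adjusted p = 0.0028) and LGALS4 0.81 ± 0.17 (adjusted p = 3.4e-05). ANPEP, known on myeloid cells as CD13, was 0.51 ± 0.20 lower (adjusted p = 0.017). The call of ANPEP was lost without the Large White male (adjusted p = 0.086) or the Iberian female (adjusted p = 0.11), and that of VIL1 without the Large White female (adjusted p = 0.054). The median difference of all probes in blood was 0.12.

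In the brain tissues and hypophyses, all 4 genes were lower than in the 10 remaining tissues other than ileum, as were 49.3% of all probes. The difference was -3.41 ± 0.13 log2 units for DPP4 (adjusted p = 7.2e-29), -2.17 ± 0.10 for ANPEP (adjusted p = 2.5e-25), -1.18 ± 0.09 for LGALS4 (adjusted p = 5.9e-17) and -0.70 ± 0.16 for VIL1 (adjusted p = 8.4e-05). The median difference over all probes was -0.12. Without the Large White male's pineal array the difference of DPP4 was -3.35. For DPP4 the groups did not overlap. For ANPEP they did, since the neurohypophysis reached 7.50 while the diaphragm went down to 4.48. VIL1 and LGALS4 overlapped too, with brain values up to 3.82 and 4.59 and values of the 10 tissues from 3.16 and 3.95. The 10 tissues included stomach, with means of 6.70 for VIL1 and 11.36 for LGALS4. The medians of the brain group and of the 10 tissues were 3.38 and 3.72 for VIL1 and 4.19 and 4.84 for LGALS4.

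VIL1 and LGALS4 had the pattern over tissues that was most alike. Pearson's correlation of the 16 tissue means was 0.93 between VIL1 and LGALS4, and it was 0.94 over the 15 tissues without ileum, among which only stomach was high for LGALS4. Between ANPEP and DPP4 it was 0.55, and 0.43 without ileum. Between ANPEP and VIL1 the correlation was 0.50 with ileum and -0.06 without it, and between ANPEP and LGALS4 it was 0.35 and -0.11. For DPP4 it was 0.50 and 0.38 with VIL1, and 0.40 and 0.19 with LGALS4. These are descriptions over tissue means that share the 4 animals, and no test was made.

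**Figure D3:**
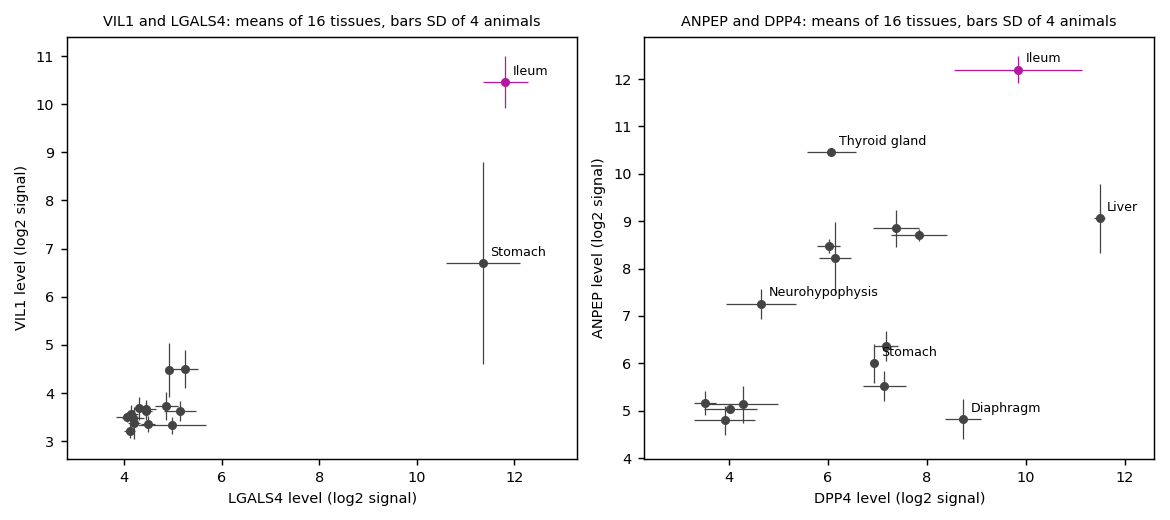
Mean levels (log2 signal) of 16 tissues for VIL1 against LGALS4 on the left and ANPEP against DPP4 on the right, with bars for the SD of 4 animals and ileum coloured. On the left ileum and stomach stood apart from 14 tissues near the bottom, and on the right the thyroid gland was high for ANPEP at 10.46 and not for DPP4 at 6.07, and the diaphragm the reverse.

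Among 6566 named genes, those with the pattern most like each of the 4 were looked up by the same correlation over 16 tissues. For VIL1 these were MMP3, a matrix metalloprotease, at 0.99, OLFM4, a secreted glycoprotein of crypt cells, at 0.98 and PIGR, the receptor that carries polymeric immunoglobulin across the epithelium, at 0.98. The mean level of OLFM4 was 10.62 in ileum, 5.08 in stomach and 2.83 in liver. For LGALS4 they were PNLIPRP2, a lipase of the pancreatic family, at 0.99, DDX60, an antiviral helicase, at 0.96 and TFF2, a trefoil peptide of gastric mucus, at 0.96. TFF2 had 8.69 in ileum and 11.92 in stomach. For DPP4 they were ST3GAL1, a sialyltransferase, at 0.92, RNF14, a ubiquitin ligase, at 0.87 and NR5A2, a nuclear receptor of liver and gut, at 0.87. NR5A2 had 8.66 in liver, 7.33 in ileum and 3.99 in stomach. For ANPEP they were SYNCRIP, an RNA-binding protein, at 0.91, NCAPD3, a condensin subunit, at 0.88 and SNRPG, a spliceosome protein, at 0.85. SYNCRIP ranged little among these organs, with 7.86 in ileum, 7.11 in liver, 7.04 in thyroid gland and 6.89 in stomach, whereas ANPEP spanned several units over them. The other 3 members of the set were in places 691, 924 and 1852 in the order of likeness to ANPEP, while LGALS4 was in place 15 for VIL1 and VIL1 in place 13 for LGALS4.

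Other genes of the brush border were described from lists of known function. A gene with several probes is given by the one brightest in ileum, and the others are given where they were not called or were called with a difference of under 1 unit. Of the other brush border hydrolases, 9 of 14 probes were higher and 1 lower in ileum than in the other tissues, with a median difference of 0.76 against -0.09 for all probes. These counts stand beside 23.4% of all probes called higher and 29.5% lower. The lower probe was that of ALPL, at -1.12. ENPEP, an aminopeptidase for acidic residues, had ileum levels of 11.65, 10.76, 11.52 and 10.59 in Large White (male, female) and Iberian (male, female), and was 6.79 higher than elsewhere. MEP1B, the beta subunit of meprin and partner of MEP1A, had 10.05, 9.01, 10.45 and 8.71 and was 6.76 higher. Its other probes were 4.92 and 0.36 higher. DPEP1, a dipeptidase, was 5.37 higher, and CPM, a carboxypeptidase, 1.15 higher. CPM was 2.11 lower in ileum than in stomach (adjusted p = 2.8e-05). In liver 5 of the 14 probes were higher and 1 lower than in the 13 other tissues, beside 21.0% of all probes higher and 6947 of 23935 lower. Of the named genes, ENPEP, DPEP1 and the brightest MEP1B probe were not called there, with differences between -0.09 and 0.0028, and CPM was 1.46 lower (adjusted p = 3.8e-05).

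Of the microvillus cytoskeleton, 7 of 11 probes were higher and 2 lower, with a median of 1.75. The counts of this paragraph stand beside 23.4% of all probes called higher and 29.5% lower in ileum. The 2 lower probes were those of RDX, at -0.68 and -1.04. Among its genes, EZR (ezrin, a linker of actin to the membrane) was 1.75 higher, SLC9A3R1 (a scaffold that binds ezrin) 2.54, MSN (moesin, a relative of ezrin) 0.53 and PDZK1 (a scaffold of apical transporters) 5.74. Both MSN and PDZK1 had a further probe that was not called, with differences of 0.17 (adjusted p = 0.29) and 0.016 (adjusted p = 0.93). The brighter PDZK1 probe was also 6.56 higher in liver. EZR was 0.68 lower in ileum than in stomach (adjusted p = 0.0028). In the villin and gelsolin family, the relatives of VIL1, 3 of 5 probes were higher and 2 lower. SCIN, an actin-severing protein, was 4.15 higher in ileum and CAPG, an actin-capping protein, 1.78 higher, while GSN (gelsolin) was 0.56 lower (adjusted p = 0.0011) and 0.49 lower by its other probe. Of the galectins, the relatives of LGALS4, 3 of 5 probes were higher and 0 lower. LGALS2 was 6.69 higher, LGALS3 3.72 and LGALS9 1.17, whereas LGALS1 differed by -0.14 and was not called (adjusted p = 0.41). Between ileum and stomach LGALS2 differed by 6.74, in contrast to LGALS4, and its stomach levels were between 3.09 and 3.85. FAP, the relative of DPP4 with a probe, differed by 0.17 between ileum and the other tissues (adjusted p = 0.51).

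Of the transporters that take up what the hydrolases release, 10 of 16 probes were higher and 1 lower in ileum, with a median of 1.46. The ileum counts of this paragraph stand beside 23.4% of all probes called higher and 29.5% lower. The lower probe was one of SLC3A1, at -1.31, whereas the brighter probe of that gene was 2.68 higher. SLC5A1, the glucose transporter SGLT1, was 7.17 higher, SLC7A9, a transporter of cystine and basic amino acids, 4.86, SLC1A1, a glutamate transporter, 4.13 and SLC15A1, the peptide transporter PEPT1, 3.44. The other 4 probes of SLC1A1 differed by 2.16, 0.69, -0.03 and -0.06, and the last 2 of them were not called. Of the lipid handling genes of enterocytes, 10 of 12 probes were higher and 1 lower, with a median of 3.09. The lower probe was that of DGAT2, at -1.29. FABP6, the bile acid-binding protein of the ileum, had 13.72, 12.97, 13.44 and 13.06 in the 4 animals and was 10.12 higher. FABP1, the fatty acid-binding protein of liver and gut, was 7.22 higher, APOA1, an apolipoprotein, 1.75 and DGAT1, an enzyme of triglyceride synthesis, 1.60, with a further DGAT1 probe at 0.14 and not called (adjusted p = 0.25). In liver 9 of these 12 probes were higher than in the 13 other tissues, beside 21.0% of all probes. FABP1 was 8.30 higher in liver, whereas FABP6 differed by -0.10 there. Of the intestinal transcription factors, 5 of 7 probes were higher and 1 lower in ileum. HNF4A was 3.70 higher, ELF3 3.51 and GATA6 2.35, while the brighter probe of GATA4 differed by -0.25 and was not called (adjusted p = 0.083) and its other probe was 0.56 lower (adjusted p = 1.6e-04).

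The ileum also held genes of other cells, and the counts stand beside 23.4% of all probes called higher and 29.5% lower. Of T and NK cell probes 12 of 14 were higher and 0 lower, of B and plasma cell probes 3 of 3, of proliferating cell probes 12 of 14, and of goblet, Paneth and enteroendocrine probes 6 of 9, with 1 lower. CD3E of T cells was 4.10 higher, JCHAIN of plasma cells 4.31, TOP2A of dividing cells 4.14 and CLCA1 of goblet cells 7.52. Smooth muscle probes were higher in 7 of 11 and lower in 2, with ACTG2 at 11.29 to 12.36, although the sample was taken as epithelium. Myeloid probes were higher in 4 of 12 and lower in 5, fibroblast and matrix probes higher in 4 of 13 and lower in 2, endothelial probes lower in 12 of 15, gastric probes higher in 2 of 8 and lower in 3, and hepatocyte probes lower in 11 of 12. Albumin had ileum levels of 3.72 to 4.66 against 14.12 on average in liver. The part of these cell types in the levels of the 4 genes was not tested.

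**Figure D4:**
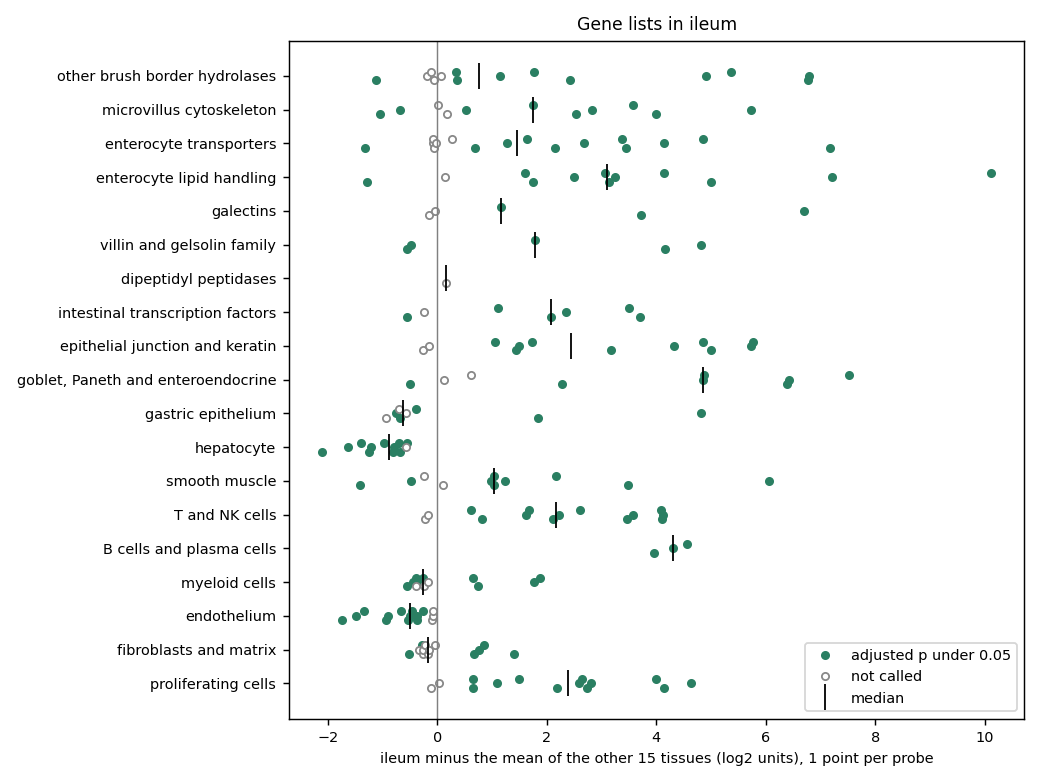
Difference of ileum from the mean of the other 15 tissues (log2 units, horizontal axis) for each probe of 19 gene lists, with filled points for an adjusted p under 0.05, open points for probes not called, and a bar at the median of each list. The lipid handling list had a median of 3.09 and reached 10.12 with FABP6, while all 15 endothelial probes lay below 0.

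Within ileum, all 4 genes were higher in both males than in both females, as were 14.7% of all probes. The mean of the males was above that of the females by 2.02 log2 units for DPP4, 0.73 for VIL1, 0.62 for LGALS4 and 0.44 for ANPEP. Sex nested in tissue was fitted in limma, a test added after these values were seen, with the spread pooled over all tissues. DPP4 was called (95% confidence interval from 1.13 to 2.90, adjusted p = 0.021), beside 0.230% of all probes higher in males. VIL1 (from -0.42 to 1.88), LGALS4 (from -0.094 to 1.33) and ANPEP (from -0.36 to 1.24) were not called. The call of DPP4 was lost without any 1 of the animals, at adjusted p of 0.13 without the Large White male, 0.50 without the Large White female, 0.067 without the Iberian male and 0.12 without the Iberian female. An exact permutation test of 2 animals against 2 cannot give a two-sided p below 0.333. Of the lists, lipid handling had 10 of 12 probes with both males above both females, transporters 12 of 16 and smooth muscle 8 of 11. Microvillus genes had 7 of 11, hydrolases 7 of 14 and transcription factors 6 of 7, whereas proliferating cells had 0 of 14 and B and plasma cells 0 of 3. The epithelial list had 5 of 12, the villin and gelsolin family 2 of 5 and T and NK cells 3 of 14. Galectins had 1 of 5 and goblet, Paneth and enteroendocrine genes 1 of 9. The mean of the lipid handling list was 8.92 and 8.58 in the Large White and Iberian males and 7.46 and 7.70 in the corresponding females. The mean of the transporters was 6.35 and 6.44 in the males and 5.78 and 5.67 in the females. In contrast, the mean of the B and plasma cell list was 9.36 and 9.54 in the males and 9.71 and 10.15 in the females. The proliferating cell list had 6.64 and 6.83 in the males and 6.80 and 7.33 in the females, which overlapped, and the epithelial list had 8.63 and 8.60 against 8.50 and 7.90. Sex, the share of cell types in a sample and the single animal cannot be told apart here.

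Both females were below both males for the 4 genes, but which of the 2 females was lowest differed by gene. The Large White female had the lowest ileum levels of ANPEP and DPP4, with DPP4 at 8.15, and 22.7% of all probes were lowest in that array. The Iberian female had the lowest levels of VIL1 and LGALS4. Of other genes, chosen after their values were seen, FABP2, the intestinal fatty acid-binding protein, had 3.01 in the Large White female and 7.44 to 8.56 in the other 3 animals, and APOA4, an apolipoprotein, 5.32 against 6.66 to 9.12. FABP1 had 11.77 in the Large White female, the highest of the 4 animals, and 9.50 in the Iberian female. The mean of the epithelial list was lowest in the Iberian female, at 7.90, and was 8.50 in the Large White female. The lipid handling list was lowest in the Large White female, at 7.46, with 7 of its 12 probes lowest in that array. The part of these lists in the level of DPP4 was not tested.

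**Figure D5:**
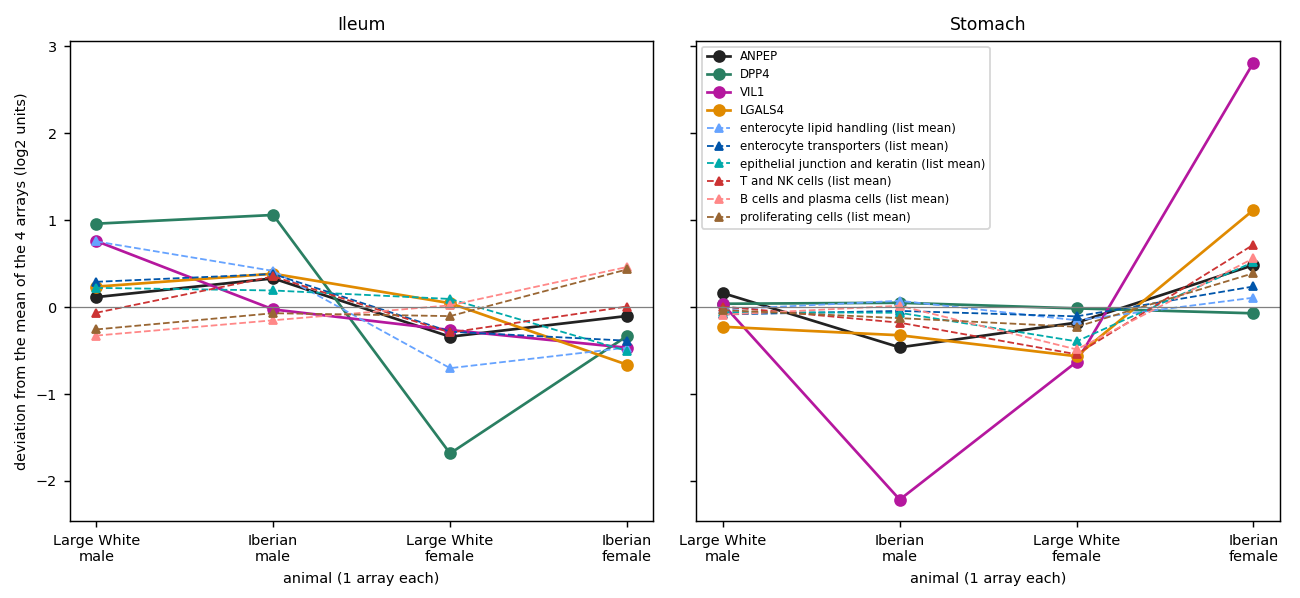
Deviation (log2 units, vertical axis) of each of the 4 animals from the mean of the ileum arrays on the left and of the stomach arrays on the right. Solid lines with circles are the 4 genes and dashed lines with triangles means of gene lists, and in ileum the males were above the females for the 4 genes and the lipid and transporter lists, whereas in stomach VIL1 and LGALS4 were highest in the Iberian female.

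The stomach of the Iberian female was above the other 3 stomachs for ANPEP, VIL1 and LGALS4 but not for DPP4, and 27.0% of all probes were highest in that array. DPP4 was 6.86 there and 6.92 to 6.98 in the other 3. Other genes known from the intestine were mixed. The goblet, Paneth and enteroendocrine list had a mean of 6.94 in that array against 5.53 to 5.94, with CLCA1 at 9.38 against 4.81 to 5.55 and SPINK4, a goblet cell peptide, by its brighter probe at 8.56 against 4.62 to 5.19. SLC15A1 had 8.25 against 5.68 to 6.18 and SLC5A1 7.14 against 5.23 to 6.0. However, ENPEP had 3.78, MEP1B 2.55, FABP1 3.70 and FABP6 3.05, within or below the range of the other stomachs in each case. Only 1 of 14 hydrolase probes and 2 of 12 lipid handling probes were highest in that array, against 10 of 14 T and NK cell probes, 10 of 14 proliferating cell probes and 7 of 12 epithelial probes. Of further genes chosen after their values were seen, ATP4A and ATP4B, the subunits of the acid pump of parietal cells, had 7.51 and 8.93 in that array against 12.61 to 12.81 and 13.02 to 13.22, CPM had 6.77 against 10.71 to 10.80, and CDH17, an intestinal cadherin, 6.71 against 4.57 to 4.87. TFF1, a trefoil peptide of gastric surface cells, had 13.88 against 13.14 to 13.84. The mean of the gastric list was 11.55 in that array and 11.91 to 12.54 in the others. However, 4 of its 8 probes were highest in that array, those of TFF1, TFF2, GKN1 and GIF. The part of these values in the levels of VIL1 and LGALS4 was not tested. Ileum against stomach for VIL1 and LGALS4, and stomach against the other tissues for VIL1, are also given above without that array. The correlations over tissue means and the results of other genes, among them CPM, are given only with it.

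Breed and sex were compared with the animal as the unit. Over the means of 16 tissues, 0 of the 4 genes were called between breeds, beside 0.0919% of all probes, and 0 between sexes, beside 0.0627%. The largest sex difference was that of DPP4, whose mean over tissues was 6.68 in the Large White male, 6.29 in the Large White female, 6.78 in the Iberian male and 6.53 in the Iberian female. It was 0.32 ± 0.07 higher in males, with an unadjusted p of 0.0079 in limma and an adjusted p of 0.9995 over all probes, so that it failed the correction. Both males were above both females in 7 of the 16 tissues for DPP4 and below in 3, beside 14.9% and 15.1% of all probes and tissues. For the other genes the males were above in 1 to 3 tissues and below in 2 to 3. The difference between breeds was -0.17 for DPP4 (adjusted p = 0.40) and between -0.05 and 0.04 for the other genes.

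Within ileum 0 of the 4 genes were called between breeds, beside 0.723% of all probes. DPP4 differed by -0.72 (95% confidence interval from -1.60 to 0.15, adjusted p = 0.74), VIL1 by 0.50 (from -0.83 to 1.82), LGALS4 by 0.28 (from -0.30 to 0.86) and ANPEP by -0.23 (from -0.90 to 0.45), as Large White minus Iberian. Without the Large White male, DPP4 differed by -1.92 and was called (adjusted p = 0.018), with the Large White female then standing alone for its breed. The difference between breeds in ileum was itself compared with that in the other 15 tissues, and 0 of the 4 genes were called, beside 0.618% of all probes, with estimates from -0.59 for DPP4 to 0.59 for VIL1.

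By tissue, both Large White animals were above both Iberian animals in 2 tissues for DPP4 and below in 4, beside 19.9% and 20.6% of all probes and tissues. The 4 tissues in which DPP4 was lower in Large White were the pineal gland, adenohypophysis, neurohypophysis and back fat. In the neurohypophysis the levels were 4.01 and 4.08 in Large White and 5.32 and 5.20 in Iberian, and in the pineal gland 3.56 and 3.84 against 5.05 and 4.70, males first. ANPEP was lower in Large White in 1 tissue and higher in 2. It was lower in liver, with 8.93 and 8.11 against 9.81 and 9.39, and higher in back fat, with 8.74 and 8.92 against 7.31 and 7.97, and in abdominal fat, with 8.52 and 8.65 against 8.35 and 8.39. VIL1 was lower in Large White in 6 tissues and higher in 1, all of them tissues in which its mean was at most 3.73, and LGALS4 was higher in 2, the thyroid gland and olfactory bulb, and lower in 2. These differences within single tissues were not tested.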

How the data were processed

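Total RNA of 16 tissues from 4 pigs was hybridised to Affymetrix porcine arrays, 1 array per tissue and animal. The authors generated signals with GCOS, checked the arrays with the Affy package and normalized all 64 together by RMA with libaffy. No versions are stated in the sources used here. Values were deposited on the log2 scale. The study's methods add a logarithm after RMA, which was tried as an alternative.

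Of 24123 probe sets, 188 controls were left out. The platform annotation gave 10069 probes 1 symbol, 198 several and 13668 none, and no probe with several was named. The RefSeq table of Sscrofa11.1 changed 0 symbols. Genes named were the members, of each list the 4 brightest in ileum (3 for other cell types), and for each member the 3 genes most correlated over tissue means. Exceptions are stated. The members and lists were chosen with earlier results of these data known.

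Tissue comparisons used limma 3.58.1 in R 4.3.3 on 64 arrays, with tissue, breed and sex as terms. Breed within ileum had breed nested in tissue, sex within ileum had sex nested in tissue, and breed and sex over all tissues were fitted to the 4 animal means. P-values were adjusted after Benjamini and Hochberg over 23935 probes at 0.05. Those of tissue comparisons and within ileum rest on the spread of 64 arrays pooled over tissues, with arrays of an animal taken as independent. Only those over all tissues rest on the spread of the 4 animal means. The pooled spread can differ from that of a tissue, as for DPP4, with an SD of 1.29 in ileum and a median SD of 0.45 over tissues. Descriptions and figures used Python 3.11.15 with numpy 2.4.6, pandas 2.3.3 and matplotlib 3.10.9. The fits were tested on simulated data.

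Arrays of an animal were paired by design. After removal of tissue means, arrays of the same animal correlated at 0.189 on average (385 of 480 pairs over 0.1) and those of different animals at -0.0629. The consensus correlation of the random block was -0.0063.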

Additional observations from a re-analysis of the deposited data

Results flagged for a closer look

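In each group of 4 arrays the highest and the lowest value were compared with the others, and in 2 of 64 groups of gene and tissue a single array was far from the other 3, where chance alone gives about 1 in 20. DPP4 in abdominal fat was 6.36 in the Large White female and between 5.88 and 5.93 in the other 3 animals. LGALS4 in the pineal gland was 4.38 in the Large White female and between 3.92 and 3.97 in the others, including the Large White male, whose pineal array had the lowest mean correlation with the other 3 pineal arrays over all probes.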

How the results depend on the processing

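With the animal as a replicate block in place of breed and sex, all 4 genes were still called higher in ileum than in the other tissues, with LGALS4 at 6.82 and an adjusted p of 1.3e-36, and the paired fit changed no call of the 4 genes in the 7 comparisons of tissues. Some counts of called genes moved. In liver the number higher, 4, was between 2 and 4 when each animal was left out in turn. In blood the number lower, 1, was between 0 and 1 when each animal was left out, and 0 with the natural logarithm of the log2 values. Between breeds in ileum, the number lower in Large White, 0, was between 0 and 1. Between sexes in ileum, the number higher in males, 1, was 0 whichever animal was left out. Against the highest other tissue in place of the mean of the others, ileum was higher by 1.74 for ANPEP, 3.77 for VIL1 and 0.45 for LGALS4, and lower for DPP4, at -1.65. Some differences, none of them called with all animals, changed sign when an animal was left out. Between breeds in ileum these ran from -1.92 to 0.47 for DPP4, from -0.19 to 1.18 for VIL1 and from -0.18 to 0.74 for LGALS4. Compared with the other tissues, the breed difference ran from -1.79 to 0.61 for DPP4, with 0.018 in between, from -0.48 to 0.028 for ANPEP and from -0.33 to 0.85 for LGALS4. Between breeds over all tissues it ran from -0.37 to 0.027 for DPP4, from -0.23 to 0.12 for VIL1, from -0.025 to 0.096 for LGALS4 and from -0.045 to 0.014 for ANPEP. Between sexes it ran from -0.038 to 0.092 for LGALS4, with -0.0027 in between, and from -0.0070 to 0.048 for ANPEP. The cause was not tested. The mean of all probes of a gene was not run, since each gene had 1 probe. With 64 arrays as replicates in place of 4 animals, 161 probes were called higher and 187 lower in males instead of 9 and 6, with the 4 animals behind all of them.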
